A study of Gasterosteus aculeatus with 9 samples.

Results

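The COPII vesicle coat was examined in gills of wild three-spined stickleback (Gasterosteus aculeatus) from a chloride gradient. The set consists of 10 coat proteins, given by the entry names of the Swiss-Prot protein database (SAR1B, SC23A, SC23B, SC24A, SC24B, SC24C, SC24D, SEC13, SC31A and SC31B). A transcript belonged to the set when the first protein name in its row was one of these. This gave 51 of the 98643 transcripts of the de novo assembly and 9 of its 10495 protein names, since no row carried SC31B as its first name. RNA of whole gill tissue was sequenced in 3 fish from each of the high-salinity station C (32 mg/L chloride), the mid-salinity station A (26.378 mg/L) and the reference station B (12.912 mg/L) of the river Boye system in Germany. The fish were caught by electrofishing at sites in different streams, so salinity and any other property of a site cannot be told apart. All fish were killed with an overdose of tricaine methanesulfonate (MS222), their age and sex are not given in the sources used here, and no pooling of fish is described.

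The COPII coat buds transport vesicles from exit sites of the endoplasmic reticulum (ER), the first step on the path of newly made membrane and secreted proteins to the cell surface. The small GTPase SAR1, loaded with GTP by the exchange factor PREB (SEC12), inserts into the ER membrane and recruits the inner coat of SEC23 and SEC24, in which SEC24 binds the cargo and SEC23 stimulates the GTPase. The outer cage of SEC13 and SEC31 then assembles on the inner coat and bends the membrane. In gills, ionocytes and other epithelial cells carry ion pumps and transporters in their surface membranes, and these proteins are made in the ER.

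Total counts per fish were between 22048892 and 46214275. Levels are given as CPM, the counts per megaread of the TMM-scaled library size, summed over all transcripts with the same first protein name. Values of a station are listed in the order of its replicates 1, 2 and 3, so the second value of station C is always replicate 2. This library stood apart from the other 8. Its liver marker list (12 of 12 names found) summed to 63540.4 CPM against 6.82 to 27.7 CPM in the other 8, while its gill epithelium and ionocyte list (11 of 13 found) summed to 3049 CPM against 8751 to 10574 CPM. No found name of either list was at 0 in all fish. In the gill list AT1A1, S12A2, RHCG, RHBG, VATA, EPCAM and K2C8 were each lowest in this library. CADH1 was instead at 512 CPM against 38.5 to 54.5 CPM in the other 8, and K1C18 at 434 CPM against 432 to 544 CPM. The skeletal muscle list of this library (10 of 12 names found) summed to 21276 CPM against 674 to 5552 CPM. Of its found names only TNNI2 was not highest there, at 317 CPM against 43.7 to 792 CPM in the other 8. Its TMM factor was 0.572 against 1.02 to 1.13, so that scaling by the library total alone lowers its values relative to the others. Results are therefore given with and without station C replicate 2, and its part in each of them was not tested. The composition of station A replicate 3 also differed. Leaving out station C replicate 2, it had the lowest AT1A1 (1016 CPM), RHBG (400 CPM) and RHCG (239 CPM). Its K2C8 (6881 CPM) was the highest, while S12A2, VATA, EPCAM, CADH1 and K1C18 lay within the range of the other fish. Its fibroblast and cartilage list (6 of 7 names found) was highest, at 1910 CPM against 443 to 1264 CPM. Its part in the results was not tested either. In whole tissue, fewer cells of a type and less RNA per cell cannot be told apart.

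Names were tested with the quasi-likelihood test of edgeR in each pair of stations, and called where the adjusted p (Benjamini-Hochberg) did not exceed 0.05 and the levels differed by more than 2-fold. Of the 9 names found, 8 passed the filter on low counts and were tested. None was called at station A against B, at C against B or at C against A. The same held for all names, with 0 of 9052, 0 of 9012 and 0 of 9075 names called (0% in each comparison) and 560, 344 and 286 names at an unadjusted p under 0.05, of which 2, 2 and 0 were coat names. DESeq2 called 37, 10 and 65 names (0.421%, 0.114% and 0.737%), and none of them was a coat name. The median log2 fold change of the 8 coat names was 0.02 at A against B, 0.22 at C against B and 0.16 at C against A, beside medians over all names of 0.01, 0.03 and 0.02.

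Ranges of the name sums were compared as a description. At station C, 4 of the 8 coat names had all 3 fish above all fish of station B and none had all 3 below, while 7.43% of 9251 names lay wholly above and 6.04% wholly below. SC31A and SC24B were among these 4, and the study had singled out both from these same fish. The count is therefore not independent evidence about the coat. At station A, 2 of the 8 lay wholly above station B and 1 wholly below, with 4.99% and 6.9% of all names in these classes. No coat name separated station C from station A, where 5.6% of all names lay wholly above and 4.03% wholly below (9.63% in all). Without station C replicate 2, the count above station B was again 4 (15.6% of all names), and 3 coat names (SAR1B, SC24C and SEC13) lay above station A (13.6% of all names). This setting compares fewer fish and also leaves out the library that stood apart, and the cause of its higher shares was not tested. With scaling by the library total only, 1 coat name (SC24B) lay above station B (2.49% of all names).

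**Figure D1:**
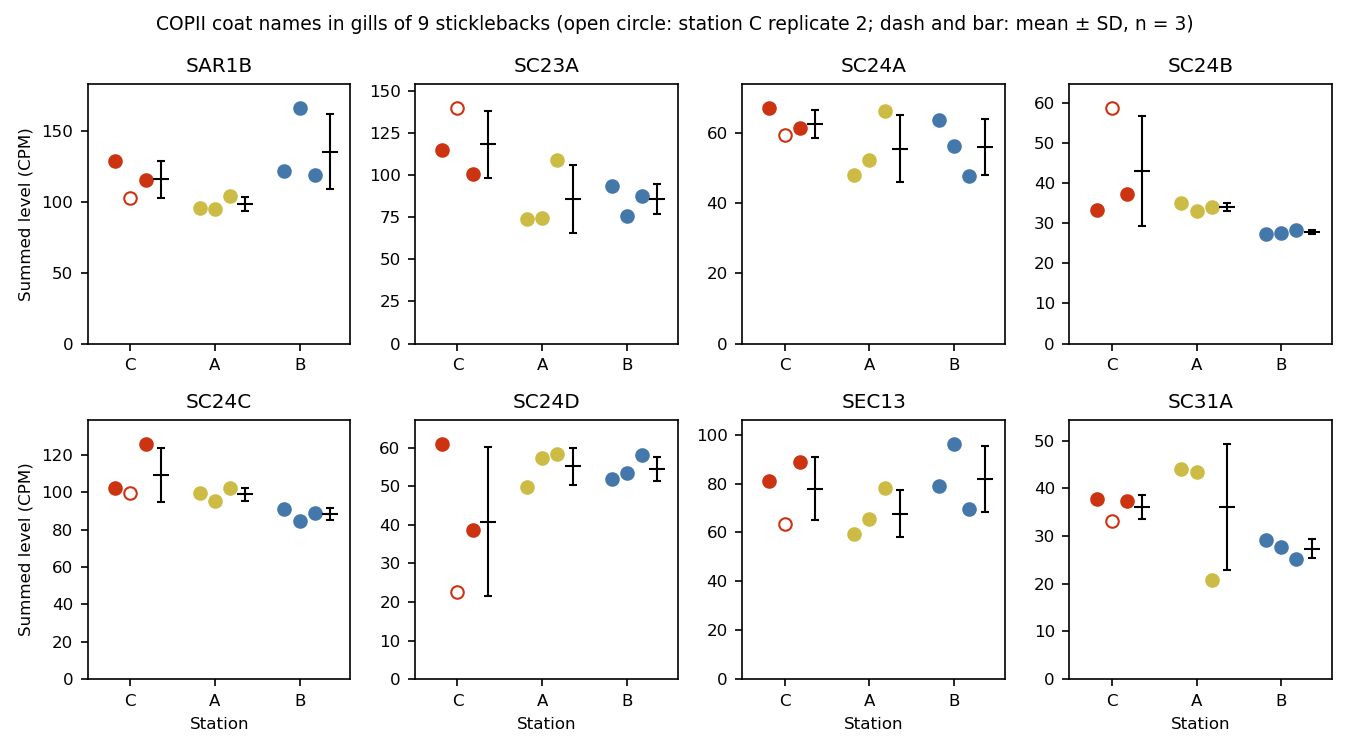
Summed level of the 8 tested coat names (y axis, TMM-scaled CPM) in each fish of stations C, A and B (x axis), with station C replicate 2 as an open circle and the mean ± SD of 3 fish as a dash with a bar. SC24B lies between 27.4 and 28.4 CPM in the 3 fish of station B and at 33.1 CPM or more in the other 6, while SC31A ranges between 20.9 and 44.1 CPM within station A.

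SAR1B, the GTPase that starts the coat, is needed in humans for the export of lipoprotein particles from the gut. It had 129, 103 and 115 CPM in fish of station C, 95.7, 95.0 and 104 CPM at station A and 121, 166 and 118 CPM at station B. All fish of station A lay below all fish of station B, and station C overlapped with both. The log2 fold change was -0.45 ± 0.16 (SE) at A against B (edgeR adjusted p = 0.776) and -0.24 ± 0.21 at C against B. Without station B replicate 2, which had the highest level, these values were -0.28 ± 0.12 and -0.07 ± 0.21. SAR1B had 7 transcripts in 5 assembled genes (groups of transcripts that share sequence in the assembly), but 3 transcripts of DN801_c0_g1 held nearly all reads. The most abundant, DN801_c0_g1_i12, took between 59.9% and 71.3% of the reads of the name in every fish, and none of the 3 was absent from a fish.

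The assembled gene DN801_c0_g1 also contains transcripts named SAR1A, the close paralog of SAR1B, and its transcript i9 carries both names. Reads of near-identical copies can be split between them during estimation, so the separate levels are uncertain. SAR1A and SAR1B together had 219.7, 179.8 and 199 CPM in fish of station C, 168, 169 and 186 CPM at station A and 211, 293 and 203 CPM at station B. The sum was again lower in every fish of station A than in any fish of station B, with means of 174 ± 10.5 CPM and 235 ± 49.8 CPM (SD, n = 3). SAR1A alone had a log2 fold change of -0.39 ± 0.18 (SE) at A against B, which was not called (edgeR adjusted p = 0.776).

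SC23A (SEC23A) is the inner coat subunit that stimulates the GTPase of SAR1, and a mutation of sec23a in zebrafish disturbs the secretion of cartilage matrix. It had 115, 140.0 and 101 CPM in fish of station C, 73.9, 74.4 and 109 CPM at station A and 93.7, 75.9 and 87.8 CPM at station B. Every fish of station C lay above every fish of station B, while station A spread over both. The log2 fold change at C against B was 0.45 ± 0.19 (SE) with all 6 fish and 0.32 ± 0.13 without station C replicate 2, and neither was called (edgeR adjusted p = 0.774 and 0.601). The value at A against B was 0.01 ± 0.19.

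SC23A had 13 transcripts, the largest number in the set, of which 11 belonged to DN9245_c0_g1. The transcript DN9245_c0_g1_i6 held between 42.0% and 56.0% of the reads of the name in every fish, and DN9245_c0_g1_i12 held between 12.8% and 24.4%. The other 9 of this assembled gene each held at most 15.6%. These 2 transcripts were thus the largest of SC23A in nearly every fish, and none of the 9 fish lacked them. DN9245_c0_g1_i14, a minor transcript named here after its values were seen, had 7, 10 and 285 counts at station C and 0, 3 and 0 counts at station A. It was the only coat transcript with at most 3 counts in each fish of one station and more in each fish of the other at C against A, against 0.987% of all transcripts in this direction, and held at most 5.44% of SC23A. It had 0, 66 and 21 counts at station B.

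SC23B (SEC23B) is the paralog whose mutation in humans gives an anaemia with defective red cell maturation. Its single row had 8 counts in station C replicate 1, 3 in station A replicate 3, 1 in station B replicate 3 and 0 in the other 6 fish. It did not pass the filter on low counts, and a count of 0 allows up to 0.150 CPM in the library with the lowest effective size. SC31B was not found as a first name, although the gene annotation of the RefSeq assembly fGasAcu3.hap1.1 of this species lists genes with the symbols of all 10 members.

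The SEC24 subunits select the cargo, and vertebrates have the paralogs A to D with overlapping cargo preferences. SC24B had 33.3, 58.8 and 37.3 CPM in fish of station C, 35.0, 33.1 and 34.1 CPM at station A and 27.4, 27.5 and 28.4 CPM at station B. The 3 fish of station B were close to each other and lay below all 6 fish of stations C and A. The log2 fold change was 0.62 ± 0.25 (SE) at C against B (edgeR adjusted p = 0.774) and 0.30 ± 0.11 at A against B (edgeR adjusted p = 0.776). Without station C replicate 2 the value at C against B was 0.33 ± 0.11. That library held the highest SC24B level, 58.8 CPM, which was 33.7 CPM when scaled by the library total only, against 28.4 to 31.5 CPM at station B on the same scale.

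SC24C showed a similar order of stations, with 102, 99.3 and 126 CPM in fish of station C, 99.5, 95.3 and 102 CPM at station A and 91.1, 84.8 and 89.0 CPM at station B. All fish of stations C and A lay above those of station B. The differences were small, with log2 fold changes of 0.30 ± 0.16 (SE) at C against B and 0.18 ± 0.09 at A against B, and were not called (edgeR adjusted p = 0.774 and 0.781). The value at C against B was 0.36 ± 0.12 without station C replicate 2 and 0.18 ± 0.17 without replicate 3. On the scale of the library total station C replicate 2 had 56.8 CPM of SC24C, below the 87.4 to 98.6 CPM of station B.

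SC24A and SC24D did not separate the stations. SC24A had 67.0, 59.4 and 61.2 CPM in fish of station C, 47.9, 52.2 and 66.2 CPM at station A and 63.6, 56.3 and 47.6 CPM at station B. SC24D had 61.1, 22.6 and 38.7 CPM in fish of station C, 49.7, 57.3 and 58.5 CPM at station A and 52.0, 53.5 and 58.1 CPM at station B. The lowest SC24D level of the 9 fish was in station C replicate 2, and the next lowest in replicate 3 of the same station. The log2 fold change of SC24D at C against B was -0.43 ± 0.37 (SE) with this library, -0.14 ± 0.21 without it and -0.85 ± 0.30 without station C replicate 1.

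SEC13 is a small WD40 repeat protein that serves both the outer COPII cage and the nuclear pore. It had 81.2, 63.6 and 88.9 CPM in fish of station C, 59.3, 65.4 and 78.2 CPM at station A and 79.1, 96.3 and 69.8 CPM at station B. All stations overlapped. The log2 fold change was -0.26 ± 0.17 (SE) at A against B and -0.08 ± 0.21 at C against B, and the value at C against B was 0.05 ± 0.16 without station C replicate 2. At A against B it was -0.13 ± 0.17 without station B replicate 2 and -0.16 ± 0.18 without station A replicate 1.

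SC31A (SEC31A) forms the outer cage with SEC13. It had 37.7, 33.2 and 37.4 CPM in fish of station C, 44.1, 43.4 and 20.9 CPM at station A and 29.1, 27.7 and 25.2 CPM at station B. All fish of station C lay above those of station B, whereas station A held both the highest and the lowest value of the 9 fish. The log2 fold change at C against B was 0.39 ± 0.15 (SE) with all 6 fish (edgeR adjusted p = 0.774) and 0.45 ± 0.12 without station C replicate 2 (adjusted p = 0.601). At A against B it was 0.41 ± 0.29, with 0.69 ± 0.12 without station A replicate 3 (edgeR adjusted p = 0.316), 0.26 ± 0.32 without replicate 1 and 0.25 ± 0.32 without replicate 2 of that station. At C against A it was -0.03 ± 0.32. Scaled by the library total only, station C replicate 2 had 19.0 CPM, below the 28.0 to 30.5 CPM of station B. The sum of the leukocyte list (4 of 8 names found, none at 0 in all fish) was highest in replicates 1 and 2 of station A. It was 506, 249 and 592 CPM in station C, 1142, 1210.3 and 361 CPM in station A and 383, 466 and 512 CPM in station B. Much of this came from PERF, with 742 and 755 CPM in these 2 fish against 87.4 to 234 CPM in the other fish. For each of LCK, ZAP70 and MPEG1, station C replicate 3 lay above 1 of these 2 fish. Markers of other lists also set replicate 3 of station A apart from its replicates 1 and 2, in both directions. It was lower for AT1A1 (5306, 3541 and 1016 CPM), RHBG (1348, 1544 and 400 CPM) and MUC5A (355, 603 and 102 CPM). It was higher for K2C8 (2458, 2518 and 6881 CPM) and AGR2 (365, 359 and 944 CPM). The contrast was thus not particular to the leukocyte list, and the part of any of these markers in the SC31A values was not tested.

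**Figure D2:**
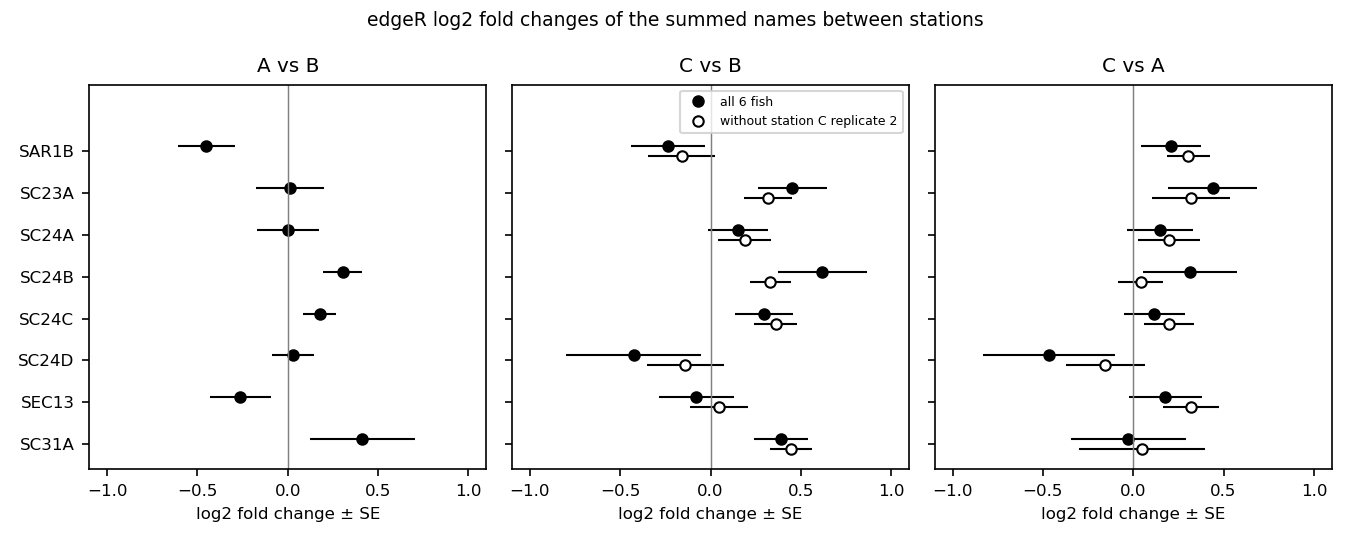
Log2 fold changes (x axis) of the 8 coat names in the 3 comparisons, with filled circles for all 6 fish, open circles for the fits without station C replicate 2 and bars for the SE. No name was called, the largest positive value was 0.62 for SC24B at C against B, and this value was 0.33 without that library.

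The sums of the coat names varied less between fish than their single transcripts, as did the sums of all names. Among features with a mean of at least 10 CPM, the coefficient of variation over the 9 fish had a median of 20.9% for the 8 coat names and of 40.7% for their 18 transcripts, beside 24.8% for 6635 names and 40.8% for 13108 transcripts. Without station C replicate 2 the medians were 14.7% and 34.3% for the coat and 16.2% and 28.8% for all. Many coat transcripts were abundant in some fish and absent from others. Of the 39 with at least 100 counts in some fish, 23 (59.0%) had at most 3 counts in another, as did 46.4% of 43861 transcripts of the whole assembly. Without station C replicate 2 the values were 21 of 39 (53.8%) and 37.5%. This measure was chosen after the data were seen.

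The pattern was unequal within the set. It held for 3 of 3 such transcripts of SC31A, 6 of 6 of SEC13, 3 of 4 of SC24B, 5 of 10 of SC24C, 5 of 10 of SC23A and 1 of 2 of SC24A, and for 0 of 3 of SAR1B and 0 of 1 of SC24D.

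**Figure D3:**
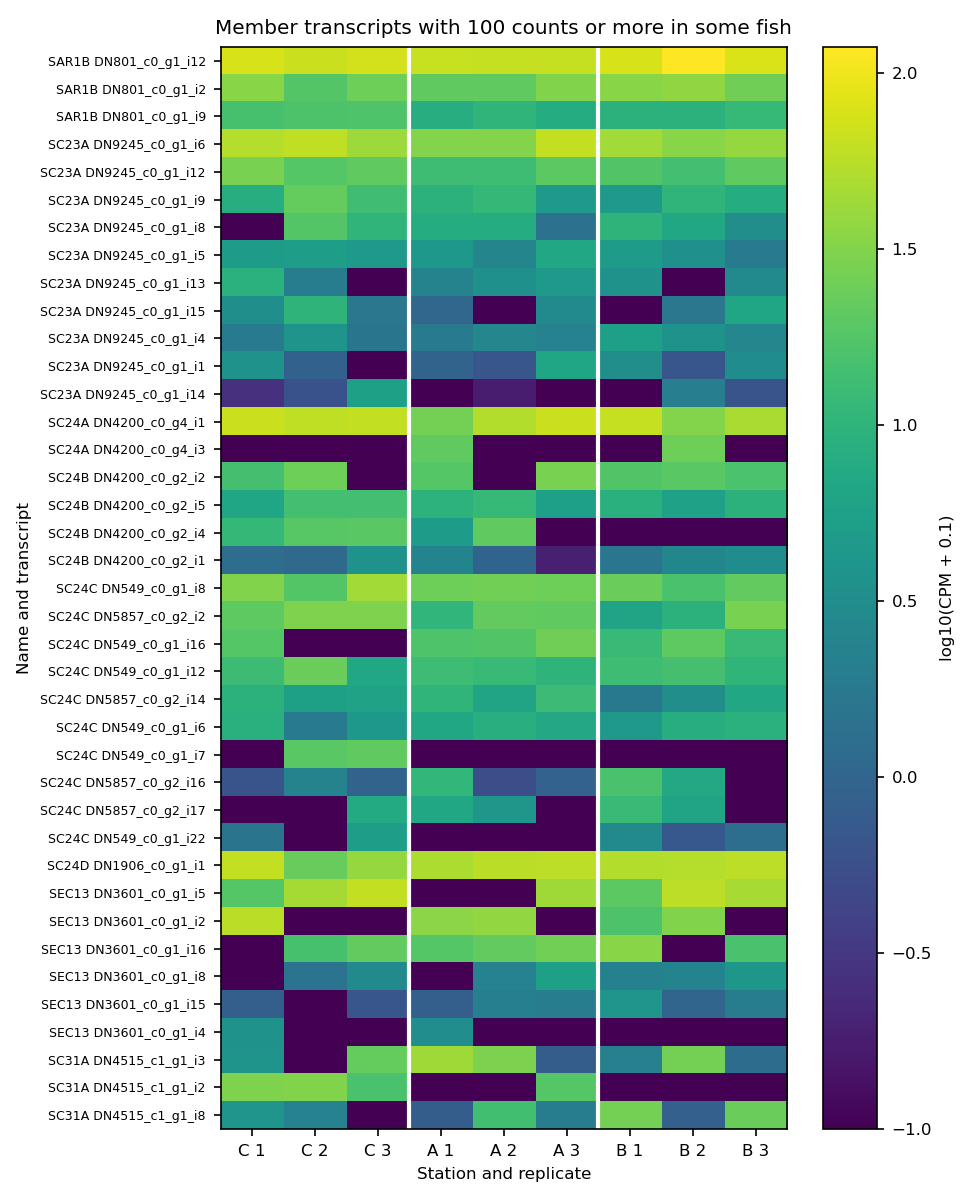
Level of the 39 coat transcripts with at least 100 counts in some fish (rows, grouped by name) in each of the 9 fish (columns, by station and replicate), coloured by log10(CPM + 0.1). Dark cells are transcripts at or near 0, which occur in fish of every station, for example in 6 of 6 transcripts of SEC13 and 3 of 3 of SC31A.

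SC31A was represented by 3 transcripts of the assembled gene DN4515_c1_g1, all with a WD40 domain label. DN4515_c1_g1_i2 had 30.1, 31.0 and 15.3 CPM in fish of station C, 0, 0 and 18.3 CPM at station A and 0 counts in all fish of station B. It was therefore present in 4 of the 9 fish, 3 of them from station C. Its mean at station C was 25.5 ± 8.78 CPM (SD, n = 3), 318-fold the mean level of 3 counts per library at station B. The lowest fish of station C was at 171-fold the highest such level.

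The other SC31A transcripts also differed between fish. DN4515_c1_g1_i3 had 3.79, 0 and 22.1 CPM in fish of station C, 43.4, 29.4 and 0.709 CPM at station A and 2.09, 26.9 and 1.12 CPM at station B. DN4515_c1_g1_i8 had 3.87, 2.20 and 0 CPM in fish of station C, 0.714, 13.98 and 1.86 CPM at station A and 27.0, 0.778 and 24.1 CPM at station B. In each fish 1 of the 3 held most of the reads of SC31A. It was i2 in station C replicates 1 and 2 (79.7% and 93.4%) and station A replicate 3 (87.7%). It was i3 in station C replicate 3 (59.0%), station A replicates 1 and 2 (98.4% and 67.8%) and station B replicate 2 (97.2%). It was i8 in station B replicates 1 and 3 (92.8% and 95.6%). The transcripts i3 and i8 fall outside the rule for named transcripts and are named after their values were seen.

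The assembled gene DN4515_c1_g1 holds a further transcript, i5, without a protein name and so outside the set. It was present in all fish at 17.0 to 32.3 CPM, or 33.7% to 59.7% of the assembled gene. With it, the assembled gene had 63.4, 60.2 and 60.4 CPM in fish of station C, 66.6, 75.7 and 51.8 CPM at station A and 57.6, 44.7 and 53.6 CPM at station B. Station C again lay above station B, with a log2 fold change of 0.21 ± 0.18 (SE), not called by edgeR (adjusted p = 0.835), compared with 0.39 for the 3 named transcripts.

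SC24B had 4 transcripts, all of DN4200_c0_g2 and all with the zinc finger label of SEC23 and SEC24 proteins. DN4200_c0_g2_i4 had 10.99, 18.8 and 19.4 CPM in fish of station C, 4.91, 20.8 and 0 CPM at station A and 0 counts in all fish of station B. It was present in 5 of the 9 fish. Its mean at station C was 16.4 ± 4.70 CPM (SD, n = 3), 205-fold the mean level of 3 counts per library at station B. The lowest fish of station C was at 122-fold the highest such level.

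Its counterpart DN4200_c0_g2_i2, named after its values were seen, was absent where i4 was highest. It had 14.7, 25.0 and 0 CPM in fish of station C, 18.1, 0 and 28.7 CPM at station A and 17.0, 19.5 and 15.96 CPM at station B. Both were present in station C replicates 1 and 2 and station A replicate 1, i4 alone in station C replicate 3 and station A replicate 2, and i2 alone in the other 4 fish. Together they had 25.7, 43.7 and 19.4 CPM in fish of station C, 22.98, 20.8 and 28.7 CPM at station A and 17.0, 19.5 and 15.96 CPM at station B. Their sum in station C replicate 3 lay within the range of station B, so that the stations overlapped for this pair. Of the other 2 SC24B transcripts, DN4200_c0_g2_i5 was present in all fish with 15.7% to 38.3% of the reads. DN4200_c0_g2_i1 held 0.260% to 10.8%, and its 3 counts in station A replicate 3 were taken as absence.

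**Figure D4:**
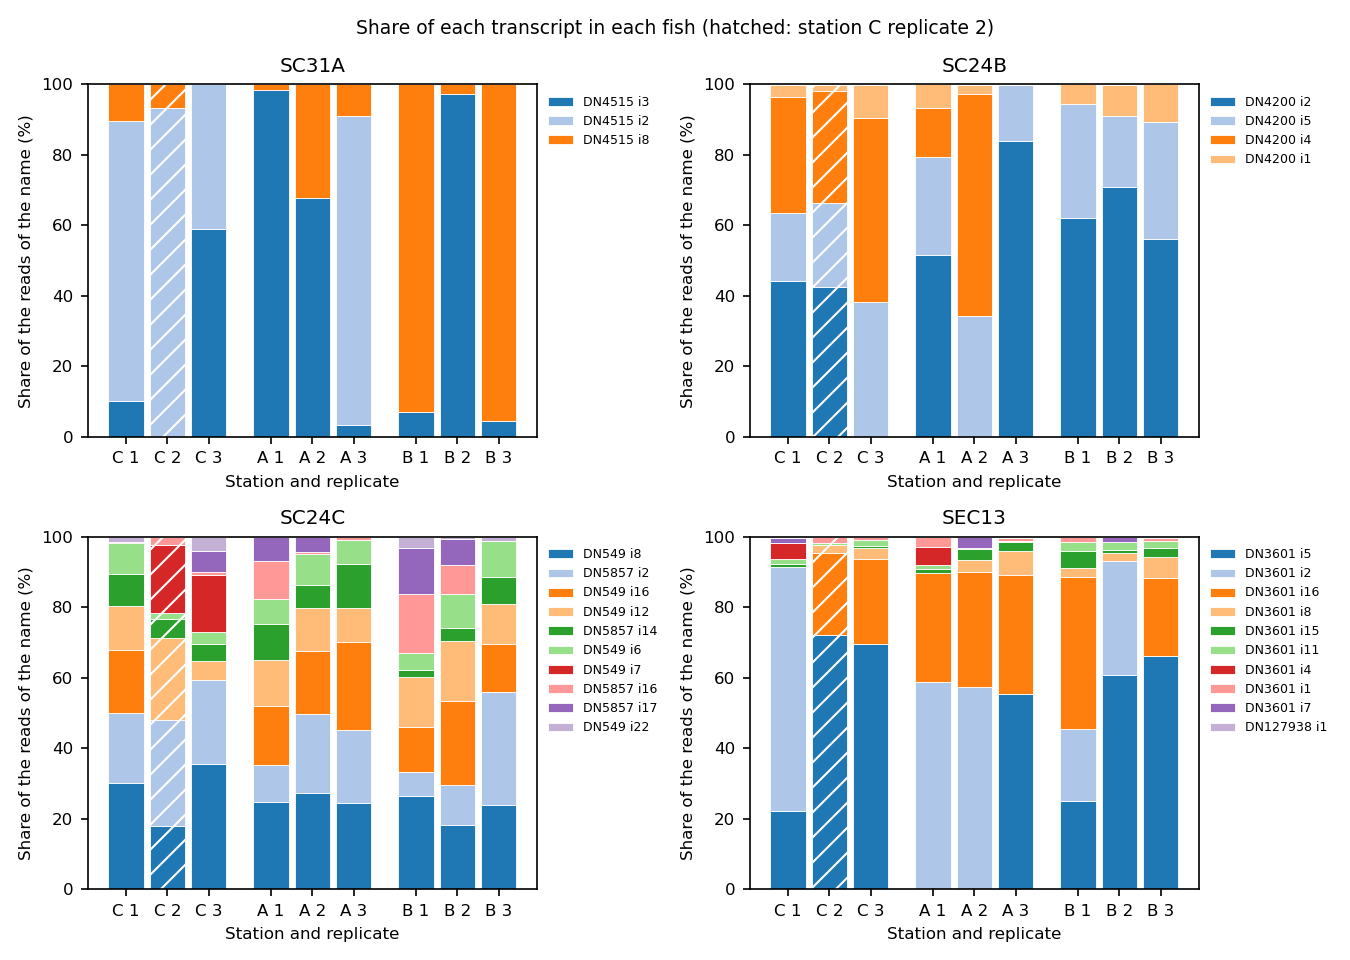
Share of each transcript in the reads of SC31A, SC24B, SC24C and SEC13 (y axis, percent) in each fish (x axis, by station and replicate), with station C replicate 2 hatched. In SC31A the transcript DN4515 i2 takes 41.0% to 93.4% at station C and 0% in the fish of station B, and in SC24B the transcript DN4200 i4 takes 31.9% to 52.2% at station C and 0% at station B.

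For single transcripts, edgeR (quasi-likelihood) called 0 of 51121 at A against B, 0 of 51856 at C against B and 0 of 51808 at C against A (0% each), with 37, 40 and 38 coat transcripts tested. At an unadjusted p under 0.05 there were 1748, 1400 and 1883 transcripts, of which 2, 2 and 1 were coat transcripts. At C against B these were SC31A DN4515_c1_g1_i2 and SC24B DN4200_c0_g2_i4, both with an edgeR adjusted p of 0.254. DESeq2, the tool named in the methods of the study, called 611 of 45053 transcripts (1.36%) above 1 CPM in at least 2 fish at C against B. Its calls included the same 2 coat transcripts, both higher at station C (0.599% of all transcripts were called higher and 0.757% lower), with adjusted p of 6.6e-17 and 4.1e-16. Both were called again in each of the 6 fits that left out 1 fish, with adjusted p of at most 8.7e-10 and 2.3e-09. Both had 0 counts in every fish of station B and at least 376 in every fish of station C. Leaving out 1 fish could not end this separation, so the repeated calls give no support. Both names were singled out from these same fish by the study, so these calls are not independent evidence.

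In the comparison of A against B, DESeq2 called 626 of 45101 transcripts (1.39%, with 0.678% higher and 0.71% lower at station A), and 2 of the lower ones were coat transcripts. They are minor and were named after their values were seen. SC24C DN549_c0_g1_i22 had 0 counts in all fish of station A and 2.78, 0.598 and 1.20 CPM at station B (DESeq2 adjusted p = 0.00034). At station C it had 1.42, 0 and 5.20 CPM, and it held at most 4.13% of SC24C in any fish. SEC13 DN3601_c0_g1_i11 had 0.580, 0.263 and 0.384 CPM at station A and 1.87, 2.03 and 1.25 CPM at station B (DESeq2 log2 fold change -2.13 ± 0.52 SE, adjusted p = 0.0042), at most 2.37% of SEC13. At C against A, DESeq2 called 1096 of 45713 transcripts (2.4%, with 1.42% higher and 0.982% lower at station C) and 0 coat transcripts. At an unadjusted p under 0.05 were 4 of the 41 coat transcripts tested, beside 3822 of the 45713.

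Transcripts with at most 3 counts in each fish of one station and more than 3 in each fish of the other were counted as switched. At C against B these were the 2 of SC31A and SC24B, both on at station C, against 0.364% of all transcripts in this direction. The study had singled out both names from these same fish, so this count is not independent evidence. The only switched coat transcript at A against B was SC24C DN549_c0_g1_i22, off at station A (0.424% of all).

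The division of a name over its transcripts was tested with diffSpliceDGE of edgeR for the 6 coat names with several transcripts past the filter on low counts, without SC24A. At C against B, 1 of the 6 was called, SC24B (adjusted p = 0.032), beside 79 of 6510 names (1.21%). The call was lost on leaving out any fish of station B (adjusted p between 0.227 and 0.274), station C replicate 1 (0.103) or station C replicate 2 (0.094). It held without station C replicate 3 (4.8e-05), in a fit that called 124 of 6735 names. SC31A was not called (edgeR adjusted p = 0.186). At A against B and at C against A none of the 6 was called, beside 1.36% and 2.34% of all names. Under an unadjusted p of 0.05 was 1 of the 6 at A against B (SC24C, adjusted p = 0.784), beside 306 of 6478 names. At C against A it was 0 of the 6, beside 345 of 6526 names. Without station C replicate 1, SC24C was called at C against B (adjusted p = 0.027) and at C against A (0.00052), in fits that called 130 of 6656 and 190 of 6678 names. Among the fish of station C, that fish alone lacked DN549_c0_g1_i7 and alone held DN549_c0_g1_i16. Leaving it out makes both transcripts separate the stations, so these calls give no support.

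SC24C had 10 transcripts in the assembled genes DN549_c0_g1 and DN5857_c0_g2. The transcripts discussed here were chosen after their values were seen. DN549_c0_g1_i7 was present in station C replicates 2 and 3 only, with 19.1 and 20.7 CPM, and DN549_c0_g1_i16 was at 0 in exactly these 2 fish and had 11.6 to 25.5 CPM in the other 7. Their sum was 18.4, 19.1 and 20.7 CPM in fish of station C, 16.8, 17.1 and 25.5 CPM at station A and 11.6, 20.2 and 12.1 CPM at station B, so that it varied less than either transcript. The assembled gene DN5857_c0_g2 had 30.1 to 44.3 CPM in fish of station C, 31.9 to 38.2 CPM at station A and 25.8 to 35.3 CPM at station B.

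The assembled gene DN549_c0_g1 also holds transcripts named GSAP, a gamma-secretase activating protein, and 4 SC24C transcripts carry a GSAP domain label beside the SEC24 ones. In the RefSeq annotation gsap and sec24c are not neighbours. SC24C rows held 55.5% of the counts of this assembled gene. The usage test within the assembled gene called DN549_c0_g1 at A against B (adjusted p = 0.0021, beside 1.18% of 9515 assembled genes), a test in which reads of both names enter. At C against B it called DN4200_c0_g2 of SC24B (adjusted p = 0.035, beside 1% of 9590). At C against A it called none of the 9 assembled genes of the set tested, beside 2.72% of all, and by their sums edgeR called none of 11 there, beside 0.00454% of all.

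SEC13 had 9 transcripts in DN3601_c0_g1, and 3 of them, described after their values were seen, held most reads. DN3601_c0_g1_i2 had 56.2, 0 and 0 CPM in fish of station C, 34.8, 37.5 and 0 CPM at station A and 16.3, 31.1 and 0 CPM at station B. DN3601_c0_g1_i5 had 18.1, 45.9 and 61.8 CPM in fish of station C, 0, 0 and 43.3 CPM at station A and 19.7, 58.5 and 46.2 CPM at station B. DN3601_c0_g1_i16 had 0, 14.8 and 21.4 CPM in fish of station C, 18.4, 21.4 and 26.4 CPM at station A and 34.0, 0 and 15.4 CPM at station B. The transcript i2 was at 0 in a fish of every station, and i5 was present in all fish of stations C and B and in 1 of station A. With all fish, DESeq2 did not call i5 in any comparison. Without station A replicate 3, DESeq2 called it lower at A against B and higher at C against A. These fits called 1818 of 42779 and 1533 of 43215 transcripts. That fish held all counts of i5 at station A, so both calls follow from leaving it out and give no support.

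SC24A had 2 transcripts of DN4200_c0_g4. DN4200_c0_g4_i1 was the only one in 7 fish, while DN4200_c0_g4_i3 held 43.8% in station A replicate 1 and 44.1% in station B replicate 2. With it, these fish had 47.9 and 56.3 CPM, within the 47.6 to 67.0 CPM of the others. SC24D had 1 transcript, which was present in all 9 fish.

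Domain labels from the authors' annotation stand in the row names. The zinc finger label of SEC23 and SEC24 was on 22 coat transcripts out of 24 named transcripts in all, the SEC23 trunk label on 5 of 5 (all SC24C), the SEC23 helical label on 6 of 6 (all SC23A) and the beta-sandwich label on 6 of 6. A WD40 label was on 3 of 3 SC31A and 5 of 10 SEC13 transcripts, and an Arf label, for GTPases of the SAR1 and ARF kind, on 4 of 7 SAR1B transcripts. The 8 transcripts with an ALKBH8_N label, a domain of a tRNA-modifying enzyme, were all SC23A, although alkbh8 and sec23a are not neighbours in the RefSeq annotation. In that annotation sar1b and sec24a lie next to each other.

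The name sums of the set did not move together over the fish. Pearson correlations of log2(CPM + 1) between the 8 names ranged between -0.88 and 0.82 with a median of 0.06 over 28 pairs and 9 fish, and between -0.65 and 0.87 with a median of 0.08 without station C replicate 2. The highest over 9 fish was that of SEC13 and SAR1B (0.82 with and without that library), and the lowest, SC24B and SC24D, was -0.88 with it and -0.40 without it. These points share libraries and their scaling. The names with the pattern closest to SC31A over the 9 fish, among 6634 names, were KKCC1 (r = 0.95), a kinase that acts on calcium-calmodulin kinases, WDR81 (0.95), SELB (0.94), PSD3 (0.94) and IRF5 (0.93), an interferon regulatory factor of immune cells. The closest coat name reached 0.33, and the median over all names was 0.03. KKCC1 and the names listed with it were picked as the highest of 6634 correlations over 9 fish. How high such a pick reaches by chance was not tested.

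The partners of the coat were described by 5 lists, which cover regulators of coat assembly, cargo receptors and export factors, tethers and fusion proteins, the COPI coat of the return path and ER folding and stress factors. Of their 82 names 56 were found and 53 tested. By edgeR 0 of them were called in each of the 3 comparisons, with 3 at an unadjusted p under 0.05 at A against B, 1 at C against B and 2 at C against A. At A against B, 13 of the 53 were higher at station A, with list medians between -0.24 and -0.11 on the log2 scale beside 0.01 for all names. At C against B, 22 were higher, with list medians of -0.26 for regulators, -0.26 for cargo receptors, -0.17 for tethers, -0.14 for COPI and 0.19 for ER folding factors, beside 0.03 for all names. Without station C replicate 2 these medians were -0.05, -0.05, -0.12, 0.13 and 0.12 in the same order, so that COPI changed sign. At C against A, 30 were higher, with list medians of 0.02, -0.05, 0.08, -0.02 and 0.21 beside 0.02 for all names, and of 0.12, 0.14, 0.04, 0.19 and 0.24 without that library.

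The names with the smallest p of each list were small changes for the most part. The log2 fold changes at A against B were -0.43 for PDCD6, a calcium sensor of the coat, -0.39 for SAR1A, -0.51 for TMED3 and -0.47 for CNIH4, both cargo receptors, -0.57 for RAB1A, a GTPase of vesicle tethering, -0.21 for the tether subunit TPC6B, -0.17 for each of COPB2 and COPE, subunits of COPI, 0.45 for ERN1, the stress sensor IRE1, and -2.01 for ENPL, the ER chaperone GRP94. At C against B they were -0.73 for PDCD6, 0.19 for S23IP, a SEC23 binding protein, -0.87 for TMED9, 1.84 for MIA2, an export factor for large cargo, -0.96 for the SNARE protein BET1L, -0.78 for TPPC3, -0.25 for COPE, -0.16 for COPD, 1.54 for ENPL and 0.32 for ATF6B. At C against A they were 0.11 for SAR1A, -0.35 for PEF1, 1.15 for the lectin LMAN1, 1.82 for MIA2, -1.11 for BET1L, 1.17 for SC22B, 0.13 for COPG2, -0.09 for COPE, 3.56 for ENPL and 0.44 for CALX. None was called by edgeR.

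DESeq2 called 1 of 10 tethers and 1 of 15 ER folding factors at C against A, beside 0.737% of 8822 names, and 0 partners in either of the other comparisons. ENPL had 13.4, 55.0 and 14.4 CPM in fish of station C, 1.78, 1.62 and 3.49 CPM at station A and 11.6, 3.11 and 13.4 CPM at station B (DESeq2 adjusted p = 0.00027). BET1L had 27.9, 16.8 and 23.5 CPM in fish of station C, 46.9, 48.6 and 49.4 CPM at station A and 26.6, 77.2 and 28.4 CPM at station B (DESeq2 adjusted p = 0.0015). The values of MIA2 and LMAN1 rested on station C replicate 2, with 331 and 133 CPM there against at most 41.4 and 41.5 CPM in the other 8 fish.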

How the data were processed

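After trimming with Trimmomatic, the authors used Trinity v2.9.1 to build 1 assembly for the 9 fish and dropped weakly expressed transcripts. Protein names come from Trinotate v3.2.2. The deposited values are estimated counts from Salmon for each transcript in each fish and were not normalized. No genome build applies. Counts were rounded to whole numbers and summed per first protein name, with total counts of 22048892 to 46214275 per fish. Counts of 3 or fewer were taken as absence, which covers counting error only.

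Each pair of stations was fitted alone in R 4.3.3 with edgeR 4.0.16 (filterByExpr, TMM, quasi-likelihood test, Benjamini-Hochberg adjustment over all features) and no term for the replicate number. Standard errors were derived from F and the log2 fold change. P-values measure the spread between fish of a site. DESeq2 1.42.0, other normalizations, filters and limits, a fit of all fish, sums per assembled gene, the replicate number as a block and leaving out each fish were alternatives. Leaving out fish from DESeq2, and the ranges of name sums under other scaling, were added after seeing the data. The edgeR tests of names, transcripts and usage, and DESeq2 on names, were run on simulated data, with outcomes not given here. DESeq2 on transcripts was not run on simulated data. Figures were drawn with matplotlib 3.10.9.

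The members and lists were chosen with earlier results of these data known. Named are all members, their transcripts that hold at least 10% of a name in a fish and were called by edgeR or DESeq2 or switched, and called partners or else the 2 of smallest p per list. Levels cannot be compared between names, since lengths were not used. No sequences were at hand to print.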

Additional observations from a re-analysis of the deposited data

How the results depend on the processing

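No coat name was called in any comparison by edgeR under its alternatives, leaving out each fish among them, or by DESeq2 with either filter on all 6 fish, and none of the assembled genes of the set was. DESeq2 called 2 coat transcripts at A against B and 2 at C against B with either filter, against 0 for the quasi-likelihood test. With the filter of edgeR it called 579 of 51121 and 729 of 51856 transcripts in all. When each fish was left out it called 1 to 4 coat transcripts at A against B, 2 to 4 at C against B and 0 to 2 at C against A. These fits called 1051 to 1818, 879 to 1689 and 1325 to 1852 of the 42523 to 44329 transcripts tested. Usage within the assembled gene gave 1 call each at A against B and at C against B (1.18% and 1% of all assembled genes tested). Leaving out fish from the usage test of names gave 0 to 1 calls at C against B and at C against A. Those fits called 96 to 157 of 6631 to 6766 names at C against B. At C against A they called 171 to 256 of 6654 to 6791 names. Switched transcripts numbered 1 to 3 at A against B, 2 to 4 at C against B and 1 to 3 at C against A without single fish (1.61% to 2.42%, 1.57% to 1.94% and 2.15% to 2.64% of all transcripts), and 0 at C against A with a limit of 0 or 10 counts. Coat names that did not overlap at C against B numbered 1 with the library total only (2.49% of all names above and 6.66% below), and 3 at C against A without station C replicate 2 (13.6% above). Scaling by the library total moved the median of all names at C against B to -0.14, against 0.03 with TMM, and at C against A to -0.11, against 0.02, and that of the coat names to 0.08, against 0.22, and to 0.05, against 0.16.

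The sign of some log2 fold changes turned. At A against B, SC24A was -0.020 with the library total, -0.010 in the fit of all fish and -0.0033 with the replicate block, and SC23A was -0.016 with the library total and -0.0072 with the replicate block. SC31A at C against A was 0.000198 in the fit of all fish and 0.047 with the replicate block, and DN549_c0_g1_i22 at C against B was -1.04 with the block. Without single fish the ranges were -0.15 to 0.11 for SC24A, -0.20 to 0.12 for SC23A and -0.015 to 0.11 for SC24D at A against B, -0.19 to 0.050 for SEC13, -1.16 to 1.26 for DN549_c0_g1_i22 and -1.36 to 2.899 for DN9245_c0_g1_i14 at C against B, and -0.28 to 0.14 for SC31A at C against A. The cause was not tested.

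Whether the replicate numbers pair the fish was not settled. Deviations of fish with the same number correlated between -0.13 and 0.25 (9 pairs, median 0.02). Those of fish with different numbers correlated between -0.22 and 0.15 (18 pairs, median -0.007). The highest value was that of station A replicate 3 and station B replicate 3, and 4 of 9 fish correlated best with their own number. With the replicate block, the usage call of SC24B at C against B was lost (0 calls, adjusted p = 0.632) and no coat name or transcript was called by edgeR. The block was not run with DESeq2 or for usage within the assembled gene. With 3 fish from 1 site per station, the tests measure the spread between fish of a site. Transcripts of an assembled gene share sequence, and the division of reads among them was not tested.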

Other observations

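Of the 51 coat transcripts, 5 of low level were found only in station A replicate 3, station C replicate 1 and station B replicate 3, with no count in the other 6 fish. They were the single row of SC23B, DN42387_c0_g1_i1 and DN49026_c0_g2_i1 of SC23A, DN127938_c0_g1_i1 of SEC13 and DN127609_c0_g1_i1 of SAR1B, the last with 68, 24 and 37 counts in station C replicate 1, station A replicate 3 and station B replicate 3. Of all transcripts with at least 3 counts in total, 3137 (3.201%) were found in at least 2 of these fish and in none of the other 6. Among all sets of 3 fish, this one had 1733 transcripts present in all 3 fish and in no other, and the next had 145.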
